A study of Mus musculus with 11 samples.

Results

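Hemoglobin, the oxygen carrier of red blood cells, is a tetramer of alpha globin and beta globin chains, each holding a heme group with an iron atom. In adult mice the alpha chains come from a pair of neighbouring genes, Hba-a1 and Hba-a2, and the beta chains from the pair Hbb-bs and Hbb-bt. Erythroblasts, the nucleated red cell precursors of bone marrow, transcribe these genes at very high levels as they mature under Gata1, Klf1 and their partners, and reticulocytes that have lost the nucleus still hold the mRNA. Free alpha chains are unstable and oxidising, so that their supply is held close to that of beta chains and of heme, and alpha hemoglobin stabilizer (Ahsp) binds the chains not yet paired.

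The genes described here were taken as the rows of the merged count table that carry the symbols Hba-a1, Hba-a2, Hbb-bs, Hbb-bt or Ahsp. They were 4 of 22600 rows, namely Hba-a1 (ENSMUSG00000069919), Hba-a2 (ENSMUSG00000069917), Hbb-bs (ENSMUSG00000052305) and Hbb-bt (ENSMUSG00000073940). Ahsp was not analysed here. All 4 genes passed the filter on low counts.

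RNA was sequenced from whole distal tibiae, the lower end of the shin bone with its marrow, of 4 controls (genotype label BMAd-WT) and 7 BMAd-DTA mice, and each mouse gave 1 library. Every mouse was of the C57BL6/SJL strain, was 24 weeks old, ate ad libitum, and, per the study's methods, carried Osterix-FLPo and FAC, a Cre in the Adipoq gene that FLPo switches on. BMAd-DTA mice also carried ROSA-DTA, a diphtheria toxin A chain that Cre releases and that kills bone marrow adipocytes (BMAds). The Cre does not recombine in every BMAd, and some BMAds remain. The comparison asks whether globin mRNA differed in bone with fewer marrow adipocytes. Since whole bone was ground, fewer erythroid cells and less globin mRNA per cell cannot be told apart.

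The libraries held 16969529 to 18637663 counts, and group ranges of depth overlapped. Adipocyte markers, the targeted cells, summed to 1486 ± 321 CPM, which are counts scaled to library size, in controls (SD, n = 4) and 842 ± 376 CPM in BMAd-DTA mice (SD, n = 7), of which 3 of 7 lay within the control range. Osteoblast and osteocyte markers summed to 3192 to 13504 CPM in controls and 16320 to 36596 CPM in BMAd-DTA mice, with no overlap. Skeletal muscle markers ranged from 12.5 to 908 CPM in controls and from 13.2 to 762 CPM in BMAd-DTA mice, and neutrophil markers from 20424 to 29840 CPM over all libraries. The part of these other cell types in the globin values was not tested, except that a fit with the muscle level as a covariate also called 0 of the 4 globins.

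The genes lie in the alpha globin cluster on chromosome 11 and the beta globin cluster on chromosome 7 (GRCm38). Hba-a1 spans chr11:32283511-32284465 and Hba-a2 chr11:32296489-32297298, both on the plus strand. Hbb-bs spans chr7:103826534-103828096 and Hbb-bt chr7:103812524-103813996, both on the minus strand. Each has 3 exons in the GENCODE transcript used.

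The members of each pair are so alike that a read pair often maps to both, and such pairs are not in the counts. Over the coding sequence, which is 426 bases in both alpha globins and 441 bases in both beta globins, each pair differs at 1 base. In the alpha pair it is C381T, and in the beta pair C417T, with the base of the first-named gene first and positions counted from 1 at the start codon's first base. Both differences lie in exon 3, at chr11:32284343 in Hba-a1 and chr11:32297160 in Hba-a2, and at chr7:103826692 in Hbb-bs and chr7:103812683 in Hbb-bt. The stretches of 25 coding bases around them are shown because they carry all that separates the coding parts of each pair. The differing base is in capitals.
Hba-a1, chr11:32284331-32284355, plus strand: tgcctctctggaCaaattccttgcc
Hba-a2, chr11:32297148-32297172, plus strand: tgcctctctggaTaaattccttgcc
Hbb-bs, chr7:103826680-103826704, minus strand: ggctggagtggcCgctgccctggct
Hbb-bt, chr7:103812671-103812695, minus strand: ggctggagtggcTgctgccctggct

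The likeness sets how much of each gene can be counted. Of all 100-base windows of the Hba-a1 transcript, 56.5% also occur in Hba-a2, and 83.3% when the genomic bases before Hba-a2 are joined to its transcript. For Hba-a2, 74.5% of windows also occur in Hba-a1. In the beta pair, 62.6% of the Hbb-bs windows occur in Hbb-bt and 54.8% of the Hbb-bt windows in Hbb-bs. The transcripts of the beta pair differ more outside the coding part, with 43 mismatches over 621 aligned bases. All 4 genes were therefore undercounted, each to its own degree, and the ratios within pairs below are ratios of counts that could be placed.

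Because the levels of the 4 globins move together below, their promoters are shown as RefSeq gives them (GRCm38.p6), with matches to 4 letter motifs in capitals. Each motif was searched on both strands, and its share is given among all 32851 promoters of the same length. The GATA motif, to which Gata1 is known to bind, was read as AGATAA or TGATAA and was present in 16.6%. The CACCC motif, within which Klf1 is known to bind, was present in 52.0% of promoters. For the promoter element CCAAT the share was 33.8%. The start site element known as the TATA box was read as TATAAA or ATATAA, which can overlap each other, and was present in 16.7%. The 247 bases before Hba-a2 occur unchanged before the RefSeq start site of Hba-a1. That site lies downstream of the GENCODE start used above for the span, length and windows of Hba-a1, so that part of this stretch is exonic there.
Hba-a2, chr11:32296242-32296488, plus strand: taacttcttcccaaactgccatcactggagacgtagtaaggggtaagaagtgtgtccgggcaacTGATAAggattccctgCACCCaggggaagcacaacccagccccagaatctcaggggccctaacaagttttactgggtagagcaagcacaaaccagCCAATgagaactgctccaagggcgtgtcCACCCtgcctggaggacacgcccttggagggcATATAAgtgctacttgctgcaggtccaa

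The beta promoters shared 175 of 244 aligned bases, or 71.7%. The 30 bases from position -94 to -65 of the RefSeq start sites hold the CACCC and CCAAT matches that the pair has in common, and Hbb-bt has a reverse-strand CCAAT match beside its forward one. Outside these 30 bases, both promoters hold TATA, Hbb-bs holds GATA and Hbb-bt holds further CACCC and CCAAT matches, while neither AGATAA nor TGATAA was found in the Hbb-bt window. The GENCODE start of Hbb-bt used above is chr7:103813996, upstream of its RefSeq start. The end of its stretch, with part of the forward CCAAT match, and its TATA matches are thus exonic there. The Hbb-bs stretch lies inside the gene span given above, which reaches chr7:103828096. It lies before the start of the Hbb-bs transcript used, at chr7:103827928. Whether other annotated exons of Hbb-bs cover it was not tested.
Hbb-bs, chr7:103827993-103828022, minus strand: gccaCACCCtggtaagggCCAATctgctca
Hbb-bt, chr7:103813988-103814017, minus strand: ggtaaCACCCtggcATTGGCCAATctgctc

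Globin mRNA was among the most abundant in distal tibia. By mean CPM over the 11 libraries, Hba-a1 ranked 2, Hbb-bs 8, Hba-a2 16 and Hbb-bt 156 of 16496 genes tested. Per kilobase of exon, the mean level was 16328 CPM for Hba-a1, 6713 for Hbb-bs, 5076 for Hba-a2 and 789 for Hbb-bt. This order held in 11 of 11 libraries for each neighbouring pair, with full exonic length as the divisor. The bases in windows that the other copy's transcript lacks were 396 for Hbb-bs and 238 for Hba-a2. The order of Hbb-bs and Hba-a2 thus depends on the length chosen. The group means ± SD of Hbb-bs and Hba-a2 were 6799 ± 2455 and 4990 ± 1721 CPM per kilobase in controls (SD, n = 4). Their overlap is one of spread between mice and does not bear on the order within a library. Together the 4 genes took up 1.23% to 2.83% of all counts in controls and 1.66% to 3.15% in BMAd-DTA mice. Their mean share was 2.28% ± 0.742 in controls (SD, n = 4) and 2.20% ± 0.495 in BMAd-DTA mice (SD, n = 7).

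No difference in globin mRNA between BMAd-DTA mice and controls was detectable in the fit across all genes. With edgeR (quasi-likelihood test, p-values adjusted by Benjamini-Hochberg), 0 of the 4 had an adjusted p under 0.05, where 0.0788% of all genes tested did. With an unadjusted p under 0.05 there were also 0 of 4, beside 16.4% of all genes. DESeq2, which called 5.42% of the genes it tested, and limma-voom with sample quality weights, which called 1.44%, each called 0 of the 4. No globin had groups that did not overlap, as 2.81% of all genes did. The fitted levels were lower in BMAd-DTA mice for 3 of the 4, beside 49.6% of all genes.

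Hba-a1, the alpha globin gene with the most counts, had 13533, 16044.5, 18164.5 and 7066 CPM in control replicates 1 to 4. In BMAd-DTA mice it ranged from 9580 to 18417 CPM with a median of 13114. A single control lay below every other library, and 6 of 7 BMAd-DTA mice fell within the range of the controls. Hba-a1 had 13702 ± 4812 CPM in controls (SD, n = 4) and 13004.5 ± 2998 in BMAd-DTA mice (SD, n = 7). Its log2 fold change was -0.08 (SE 0.24, 95% interval -0.59 to 0.43, adjusted p = 0.914 by edgeR), so that a fall to 0.667 times or a rise to 1.35 times the control level lay at the ends of the interval.

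Hba-a2, the second alpha globin copy, had 3464, 3952, 4224 and 1673 CPM in the 4 controls. BMAd-DTA mice ranged from 2396 to 4940 CPM with a median of 3311. BMAd-DTA replicate 5 alone exceeded the controls, and the other 6 fell within their range. The fit gave 0.04 on the log2 scale (SE 0.24, 95% interval -0.49 to 0.56, adjusted p = 0.961 by edgeR).

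Hbb-bs, the more abundant beta globin gene, had 5297, 7404, 5386 and 2799 CPM in the 4 controls. In BMAd-DTA mice it lay between 3851 and 7002 CPM with a median of 5200.5, and all 7 values were within the control range. Its log2 fold change was -0.03 (SE 0.22, 95% interval -0.50 to 0.44, adjusted p = 0.969 by edgeR).

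Hbb-bt, the second beta globin gene, had 602, 718, 634 and 333 CPM in the 4 controls and 440 to 706 CPM, with a median of 513, in BMAd-DTA mice. Here too all 7 BMAd-DTA values were within the control range. The fit gave a log2 fold change of -0.07 (SE 0.18, 95% interval -0.46 to 0.32, adjusted p = 0.892 by edgeR). Few pairs of Hbb-bt fell on the opposite strand, with 15 to 68 unscaled counts in controls and 5 to 21 in BMAd-DTA mice. Of these 5 of 7 lay under the lowest control, where 0 of 7 did for Hba-a1, Hba-a2 and Hbb-bs. Control replicate 1 had the 68 counts and also the most opposite-strand counts of Hbb-bs, at 830. The share of all genes with such a difference was not computed.

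**Figure D1:**
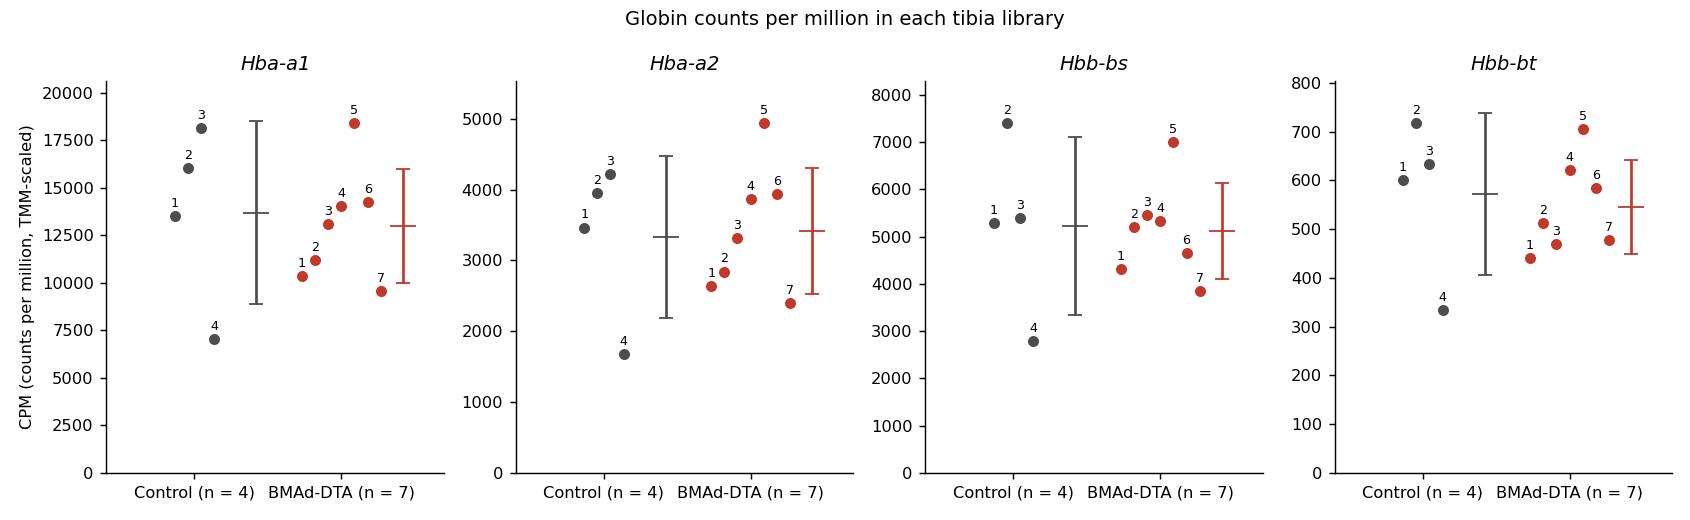
TMM-scaled CPM of the 4 globin genes (vertical axes, from 0) in each library, numbered by replicate, for 4 controls (grey) and 7 BMAd-DTA mice (red), with the group mean and SD beside the points. Control replicate 4 is the lowest library for each gene, at 7066 CPM for Hba-a1, and the groups overlap in every panel.

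The direction of these small differences rested on single mice. Control replicate 4 had the lowest level of each of the 4 globins. Without it the log2 fold changes were -0.29 for Hba-a1, -0.18 for Hba-a2, -0.24 for Hbb-bs and -0.26 for Hbb-bt. That fit called 0 of the 4, beside 89 of all 16774 genes tested. Without control replicate 3 the value for Hba-a1 was 0.09 and for Hba-a2 0.18, and without control replicate 2 that for Hbb-bs was 0.19 and for Hbb-bt 0.06. The widest spread was among the controls. The SD of log2 CPM was 0.49 to 0.62 in controls and 0.25 to 0.37 in BMAd-DTA mice for the 4 genes. Pooled within groups, it was 0.35 for Hbb-bt to 0.47 for Hba-a2, while the median over the 2228 genes with at least 100 CPM was 0.12.

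Globin levels rose and fell together across the libraries. Over the 11 libraries, the log2 CPM of Hba-a1 correlated with that of Hba-a2 (Pearson's r = 0.985, permutation p = 1e-05, the smallest that 100000 permutations can give, adjusted p = 0.00018; Spearman's rho = 1, permutation p = 1e-05). Its r was 0.928 with Hbb-bt (permutation p = 0.00011, adjusted p = 0.00099; rho = 0.900, permutation p = 0.00034) and 0.888 with Hbb-bs (permutation p = 0.00034, adjusted p = 0.00162; rho = 0.809, permutation p = 0.00396). Without control replicate 4 and BMAd-DTA replicate 7, the 2 libraries farthest from the median of Hba-a1, r was 0.961, 0.855 and 0.682. Adjusted values are over 18 relations of Hba-a1. The points share a library and its scaling, and the copies of a pair share sequence.

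No difference in the balance of alpha to beta globin mRNA was detectable. The ratio of summed alpha to summed beta counts, each per kilobase, was 2.82, 2.41, 3.63 and 2.72 in the 4 controls. It ranged from 2.41 to 3.41 with a median of 2.71 in BMAd-DTA mice, and 6 of 7 values were within the control range. Each globin was undercounted to its own degree, so the level of this ratio is that of placed counts and not of mRNA. The difference of the mean log2 ratio was -0.02 (SE 0.14, two-sided exact permutation p = 0.845, adjusted p = 0.845 over 3 ratios). With 330 splits of the mice the smallest p possible was 0.00303.

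Within the alpha pair, the ratio of placed counts was compared in the same way. Hba-a1 to Hba-a2 was 3.21, 3.34, 3.53 and 3.47 in the 4 controls and 2.98 to 3.28, with a median of 3.23, in BMAd-DTA mice. In BMAd-DTA mice 3 of 7 values were below every control. The log2 ratio differed by -0.11 (SE 0.04, two-sided exact permutation p = 0.0303), and the difference did not pass the adjustment over the 3 ratios (adjusted p = 0.0909). Without a single mouse, the adjusted p ranged from 0.05 to 0.25, and with ranks in place of log2 ratios p was 0.0727 (exact permutation test, adjusted p = 0.218). This ratio rests on the pairs that could be placed, and what share of alpha globin pairs they were was not measured.

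Hbb-bs to Hbb-bt was 8.06, 9.44, 7.78 and 7.68 in the 4 controls and 7.30 to 10.7, with a median of 8.99, in BMAd-DTA mice. The values overlapped and the log2 ratio differed by 0.06 (SE 0.10, two-sided exact permutation p = 0.6, adjusted p = 0.845). The bases in windows that the other copy's transcript lacks were also used in place of exon length. The level of this ratio was then 10.7 in controls and 11.1 in BMAd-DTA mice, and that of Hba-a1 to Hba-a2 was 2.14 and 1.99. This length is too long for Hba-a1. Its own windows fall from 261 to 100 of 600 when the genomic bases before Hba-a2 are joined to that transcript. The level of Hba-a1 to Hba-a2 with the shorter length was not computed. The choice of length thus sets the size of a ratio between copies and leaves the difference between groups as it was.

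**Figure D2:**
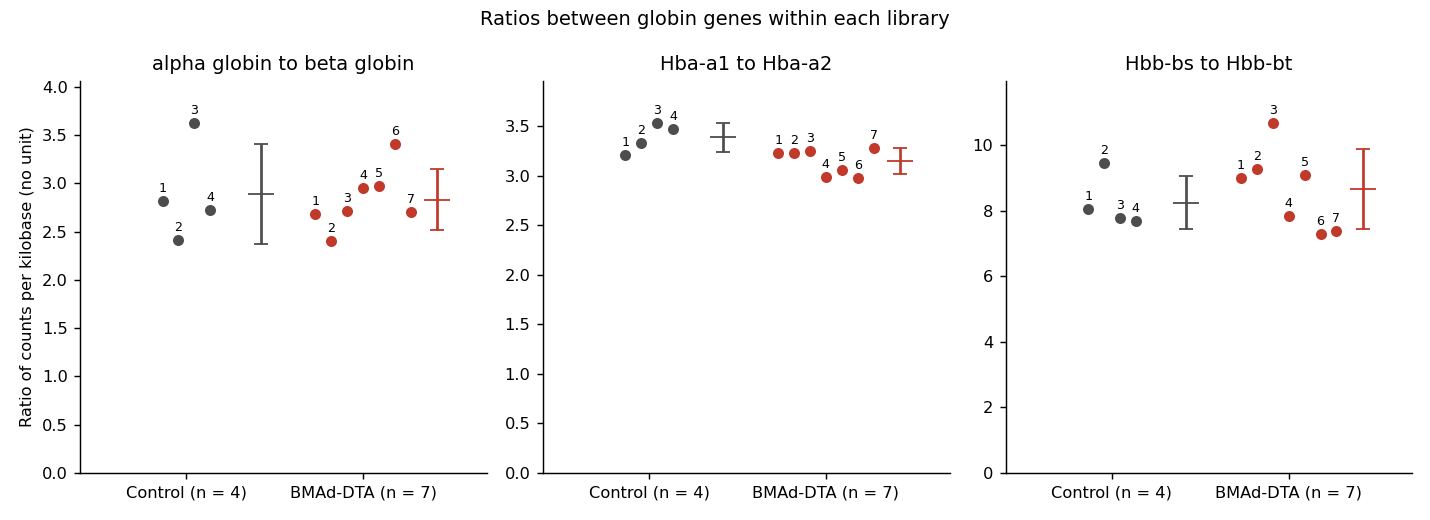
Ratios of counts per kilobase between globin genes (vertical axes, no unit, from 0) in each library, numbered by replicate, with group mean and SD. Alpha to beta globin spans 2.41 to 3.63 in both groups together, and 3 of 7 BMAd-DTA mice lie below every control for Hba-a1 to Hba-a2.

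Pairs that mapped to several places tracked the globins. They made up 6.68% of all read pairs in control replicate 4, the library lowest in globin, and 9.07% in BMAd-DTA replicate 5, which had the highest Hba-a1. Across the 11 libraries this percentage correlated with the log2 CPM of Hba-a1 (Pearson's r = 0.886, permutation p = 0.00036, adjusted p = 0.00162; Spearman's rho = 0.818, permutation p = 0.00305). Without the 2 libraries farthest from the median, r was 0.815. How many of these pairs came from globin mRNA was not tested. The mean percentage was 7.96% ± 0.872 in controls (SD, n = 4) and 7.88% ± 0.636 in BMAd-DTA mice (SD, n = 7).

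The other hemoglobin genes of the family were at low levels. The embryonic genes Hba-x, with 2 to 19 counts, and Hbb-y, with 0 to 9 counts, did not pass the filter in this adult bone. In the per-library counts, the embryonic gene Hbb-bh1 had 0 to 6 counts and Hbb-bh0, Hbb-bh2 and Hbb-bh3 had at most 3. Of 4 other globin genes tested, 0 were called, and their median log2 fold change was -0.12 beside 0.0018 over all genes, which turned to 0.20 with DESeq2 and without a filter on low counts, to 0.23 with the muscle covariate, and to 0.092 and 0.020 without control replicates 2 and 3, and was -0.36 without control replicate 4. Hbq1b, a theta globin gene, had 16.5 ± 5.13 CPM in controls and 12.2 ± 2.94 in BMAd-DTA mice (SD, n = 4 and n = 7; log2 fold change -0.43, SE 0.21, adjusted p = 0.326 by edgeR), while its copy Hbq1a had 7 to 36 counts and a log2 fold change of 0.20 (SE 0.43). Cytoglobin (Cygb) and myoglobin (Mb), globins of fibroblasts and muscle, had log2 fold changes of 0.19 (SE 0.12) and -0.49 (SE 1.0).

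Most genes of 8 lists related to red cells and hemoglobin had lower fitted levels in BMAd-DTA mice. The lists also hold the other globin genes above, redox and translation genes and genes of hemoglobin clearance. Over the 8 lists, 83 genes were tested and 69 had a lower fitted level. edgeR called 0 of them at an adjusted p under 0.05, and 45 had an unadjusted p under 0.05, of which 43 were lower. DESeq2 called 22, with 21 lower, and limma-voom called 4, with 3 lower. Over all genes, the shares given above were 49.6% with a lower fitted level, 0.0788% called by edgeR, 16.4% with an unadjusted p under 0.05 in either direction, 5.42% called by DESeq2 and 1.44% by limma-voom. The median log2 fold change of the 83 was -0.29, and that of all genes 0.0018.

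Of the 8 lists, that of the red cell membrane had the lowest median. Each of its 15 genes had a lower fitted level, 0 were called by edgeR and 9 by DESeq2, and the median log2 fold change was -0.54. Slc4a1, the band 3 anion exchanger, had 3090 ± 902 CPM in controls and 2225 ± 391 in BMAd-DTA mice (SD, n = 4 and n = 7; log2 fold change -0.47, SE 0.18, adjusted p = 0.201 by edgeR). For Slc4a1 all 7 BMAd-DTA values lay within the control range. For the summed CPM of the list 6 of 7 did, and 1 lay below every control. Log2 fold changes of the list ran from -0.66 for Rhag, an ammonia channel of the Rh complex, to -0.41 for the water channel Aqp1. Without control replicate 4, the median was -0.73 and 7 of the 15 were called, beside 89 of all 16774 genes tested. Without control replicate 1 the median was -0.39 with 0 called, and that fit called 0 of all 16766 genes.

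Transcription factors of the erythroid lineage were also lower in their fitted levels, in 12 of 12 tested, and their median log2 value was -0.39, or -0.25 without control replicate 1. Gata1, the master regulator that opens erythroid genes, had 141 ± 39.7 CPM in controls and 102 ± 14.4 in BMAd-DTA mice (SD, n = 4 and n = 7; log2 fold change -0.46, SE 0.15, adjusted p = 0.144 by edgeR). Of the BMAd-DTA values, 5 of 7 lay under the lowest control. Klf1, the activator of adult beta globin, was read from the per-library counts and had 1971 to 3815 counts in controls and 1447 to 2566 in BMAd-DTA mice (log2 fold change -0.53, SE 0.18, adjusted p = 0.153 by edgeR). Sox6, which helps silence embryonic globin, had the lowest value of the list at -0.63 (SE 0.18, adjusted p = 0.113), and Zfpm1, the Gata1 partner FOG1 and the most abundant member, had -0.49 (SE 0.13, adjusted p = 0.098). Nfe2, a factor that binds the globin control regions, had -0.23 (SE 0.11), Bcl11a, the silencer of fetal globin, -0.05 (SE 0.12), and Myb, which marks early progenitors, -0.02 (SE 0.09). DESeq2 called 6 of the 12, all lower, among them the erythropoietin receptor Epor, which the list also holds.

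Genes of heme synthesis, which supply the prosthetic group of globin, had lower fitted levels in 11 of 13 and a median log2 fold change of -0.33. Without control replicate 4 the median was -0.50 and 3 were called, beside 89 of all 16774 genes tested. Alas2, the erythroid enzyme that starts the pathway and the most abundant of the list, had 1098 ± 335 CPM in controls and 940 ± 153 in BMAd-DTA mice (SD, n = 4 and n = 7; log2 fold change -0.22, SE 0.18, adjusted p = 0.590 by edgeR). Fech, which inserts the iron, had 616 ± 162 and 493 ± 69.3 CPM (log2 fold change -0.32, SE 0.16, adjusted p = 0.329). The lowest value was that of Cpox, an oxidase of the late pathway, at -0.70 (SE 0.17, adjusted p = 0.0774 by edgeR), and DESeq2 and limma-voom called it. For Cpox 6 of 7 BMAd-DTA values lay under the lowest control, while for Alas2 and for Fech all 7 were within the control range. The summed CPM of the list also lay within that of the controls in 7 of 7. The highest was that of Alad at 0.16 (SE 0.30).

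Among genes of iron uptake and storage, 7 of 10 had a lower fitted level and the median was -0.14, and -0.083 without BMAd-DTA replicate 7. No gene of this list was called in the reported fit, and 2 were without control replicate 3, beside 292 of all 16757 genes tested. Tfrc, the transferrin receptor that brings iron into erythroblasts, had 432 ± 99.2 CPM in controls and 320 ± 33.5 in BMAd-DTA mice (log2 fold change -0.43, SE 0.12, adjusted p = 0.115 by edgeR). Ferritin light chain Ftl1 had the highest value, 0.98 (SE 0.37, adjusted p = 0.204). Whether copies of Ftl1 elsewhere in the genome share its reads was not tested. The ferritin heavy chain Fth1, the most abundant of the list, had 0.016 (SE 0.097).

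Reticulocyte maturation genes were lower in 11 of 11 fitted values with a median log2 fold change of -0.27, from -0.51 for Tfdp2, a cell cycle factor, to -0.10 for Bpgm, the enzyme that makes the allosteric effector of hemoglobin. Bnip3l, which clears mitochondria from reticulocytes, had -0.11 (SE 0.09), and Rbm38, an RNA-binding protein and the most abundant of the list, -0.29 (SE 0.13). In the list of redox protection and translation control, 9 of 11 were lower with a median of -0.17, which was -0.26 without control replicate 4 and -0.11 without control replicate 1. Eif2ak1, the heme-regulated kinase that matches globin translation to heme, had -0.29 (SE 0.12, adjusted p = 0.239), Prdx2, the peroxidase of red cells, -0.32 (SE 0.16), the peroxidase Gpx1, the most abundant, -0.21 (SE 0.14), Blvrb, the lowest, -0.41 (SE 0.15) and Cyb5r3, which reduces methemoglobin, 0.06 (SE 0.09).

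Clearance of hemoglobin and heme was the list with a median above 0, at 0.05 over 7 genes and 0.023 to 0.069 with a mouse left out. Hmox1, the heme oxygenase of macrophages, had 193 to 404 CPM in controls and 402 to 535 in BMAd-DTA mice, so that 6 of 7 exceeded the highest control (log2 fold change 0.52, SE 0.16, adjusted p = 0.134 by edgeR), and DESeq2 called it. Haptoglobin (Hp), which binds free hemoglobin, had -0.09 (SE 0.09), and the scavenger receptor Lrp1, the most abundant, 0.05 (SE 0.10). Macrophage markers summed to 1580 ± 31.6 CPM in controls (SD, n = 4) and 1583 ± 149 in BMAd-DTA mice (SD, n = 7).

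**Figure D3:**
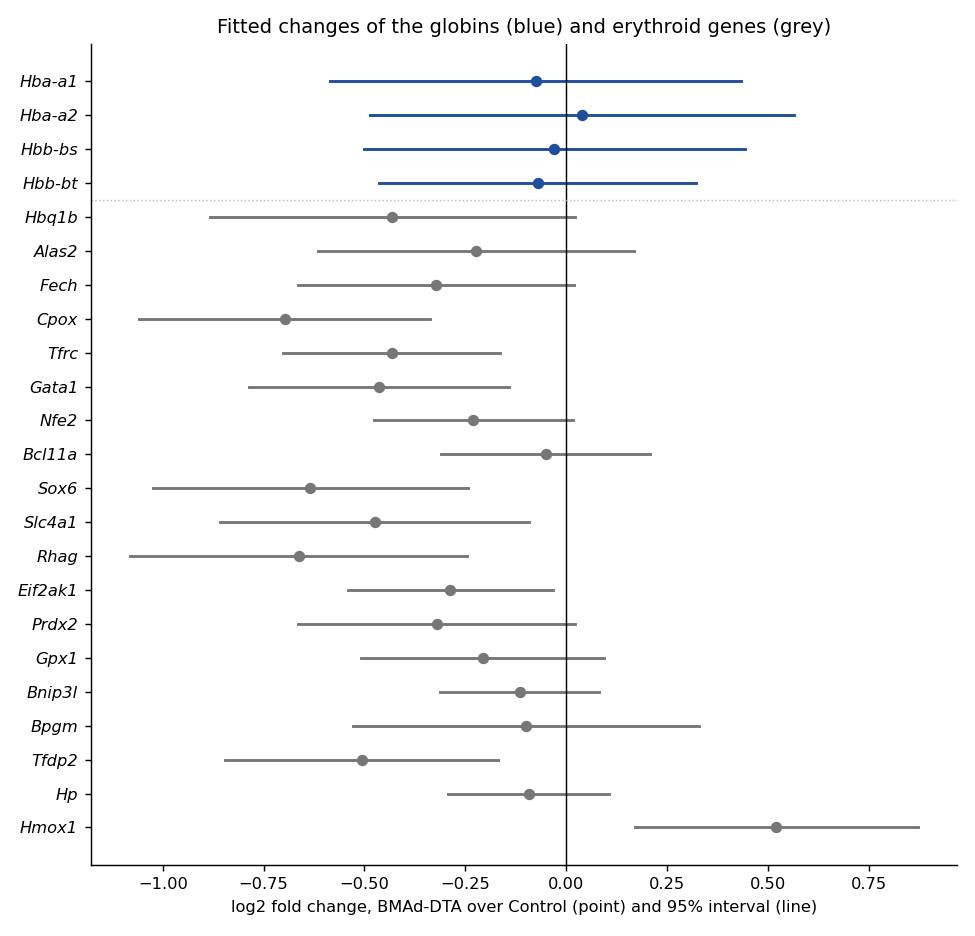
Log2 fold changes of BMAd-DTA over controls (points) with 95% intervals (lines) from the edgeR fit, for the 4 globins in blue and related genes in grey. The globin points lie between -0.08 and 0.04 with intervals on both sides of 0, and Rhag lies at -0.66.

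**Figure D4:**
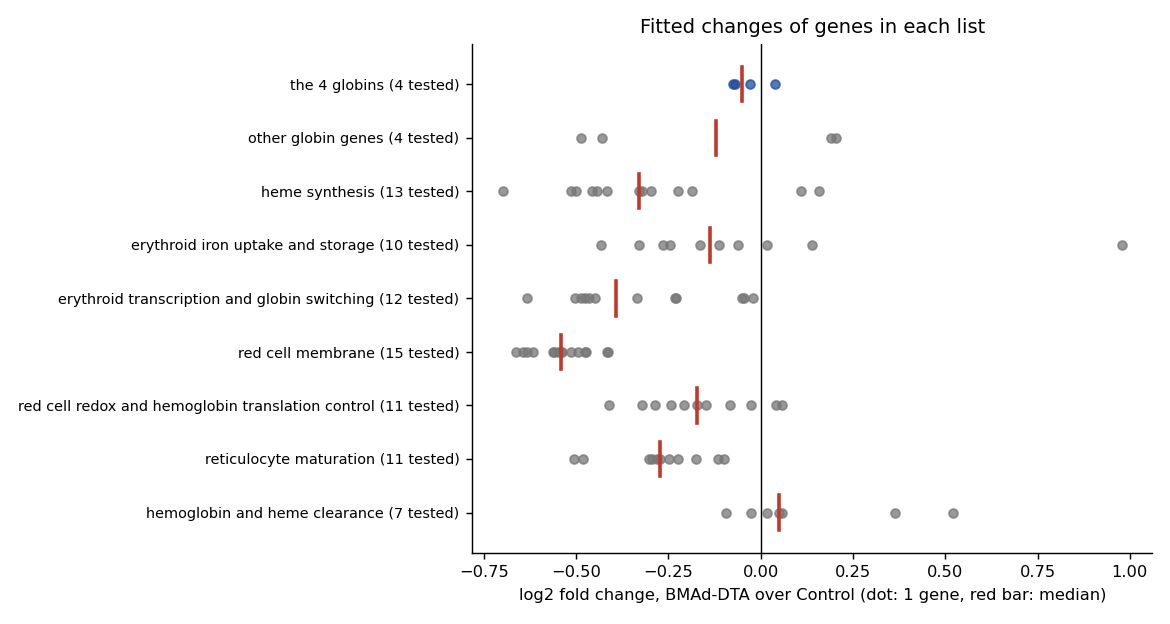
Log2 fold changes (horizontal axis) of each tested gene of the globins (blue) and of 8 lists of related genes (grey), with the median of each list as a red bar. The median is -0.54 for the red cell membrane list and 0.05 for the clearance list.

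Whether the globins and other erythroid genes differed in their change was tested within libraries, a comparison added after these values were seen. For 12 erythroid genes, the log2 ratio of their counts to those of Hba-a1 and of Hbb-bs was compared between the groups by a two-sided exact permutation test. All 24 ratios were lower in BMAd-DTA mice, 6 had p under 0.05 and 0 of 24 passed after adjustment, the lowest adjusted p being 0.133. With 330 splits the smallest p possible was 0.00303, which leaves little room for adjustment over 24 ratios. A difference was thus not detected for any ratio, and this does not show that the globins and these genes changed alike.

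Slc4a1 had 46.6 to 76.0 counts for each 100 counts of Hbb-bs in controls and 36.3 to 58.7 in BMAd-DTA mice, of which 5 of 7 values lay under the lowest control (log2 difference -0.47, SE 0.18, exact permutation p = 0.0303, adjusted p = 0.133). Against Hba-a1 the difference was -0.42 (SE 0.21, exact permutation p = 0.0727, adjusted p = 0.202). Fech, the enzyme that inserts iron into heme, had 9.74 to 13.4 counts for each 100 counts of Hbb-bs in controls and 8.68 to 12.2 in BMAd-DTA mice, so that the groups overlapped (log2 difference -0.32, SE 0.12, exact permutation p = 0.0333, adjusted p = 0.133). For Alas2 the differences were -0.21 and -0.16, and for Bnip3l -0.14 and -0.09.

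Genes were then ranked by how closely their levels followed the globins across libraries. Of the 10 genes outside the pairs with the highest Pearson's r to the mean log2 CPM of the 4 globins over the 11 libraries, those reported here were Bpgm (0.967), Slc25a39 (0.949), Alas2 (0.932), Mkrn1 (0.932), Dedd2 (0.915), Map1lc3b (0.914), C5ar2 (0.893), Gm42372 (0.892) and Ankrd9 (0.889). After the group means were subtracted, r was 0.972 for Bpgm and for Alas2. Slc25a39 is a mitochondrial carrier, Mkrn1 a ubiquitin ligase and Map1lc3b an autophagosome protein. Gm42372 had a mean of 0.856 CPM and thus few counts. None of the 10 was called, and their log2 fold changes ran from -0.24 for Ankrd9 to 0.0054 for Map1lc3b.

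The mean log2 CPM of the lists was also set against that of Hba-a1, and which list came first depended on the measure. Reticulocyte maturation genes had the highest r over the 11 libraries (Pearson's r = 0.751, permutation p = 0.00679, adjusted p = 0.0244; Spearman's rho = 0.773, permutation p = 0.00747; r = 0.750 without the 2 farthest libraries). Redox and translation control genes had r = 0.733 (permutation p = 0.00993, adjusted p = 0.0298; rho = 0.845, permutation p = 0.0016; r = 0.684 without them). Iron uptake and storage genes had r = 0.629 (permutation p = 0.0371, adjusted p = 0.0835; rho = 0.600, permutation p = 0.0561), and r = 0.767 without the 2 farthest libraries. Heme synthesis had r = 0.670 (permutation p = 0.0232, adjusted p = 0.0597; rho = 0.655, permutation p = 0.033) and the red cell membrane list r = 0.589 (permutation p = 0.0554, adjusted p = 0.111; rho = 0.609, permutation p = 0.0517). The transcription factor list had r = 0.290 (permutation p = 0.383, adjusted p = 0.530; rho = 0.382, permutation p = 0.248). Among markers of other cell types, adipocyte markers had r = 0.516 (permutation p = 0.104, adjusted p = 0.187; rho = 0.691, permutation p = 0.0227, adjusted p = 0.0584) and r = 0.653 after the group means were subtracted. Muscle markers had r = 0.267 (permutation p = 0.433, adjusted p = 0.557; rho = 0.218, permutation p = 0.517) and neutrophil markers -0.195 (permutation p = 0.558, adjusted p = 0.628; rho = -0.0727, permutation p = 0.838). For the clearance list and the other 4 marker lists, r lay between -0.438 and 0.478 with an adjusted p of 0.226 or more by permutation.

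**Figure D5:**
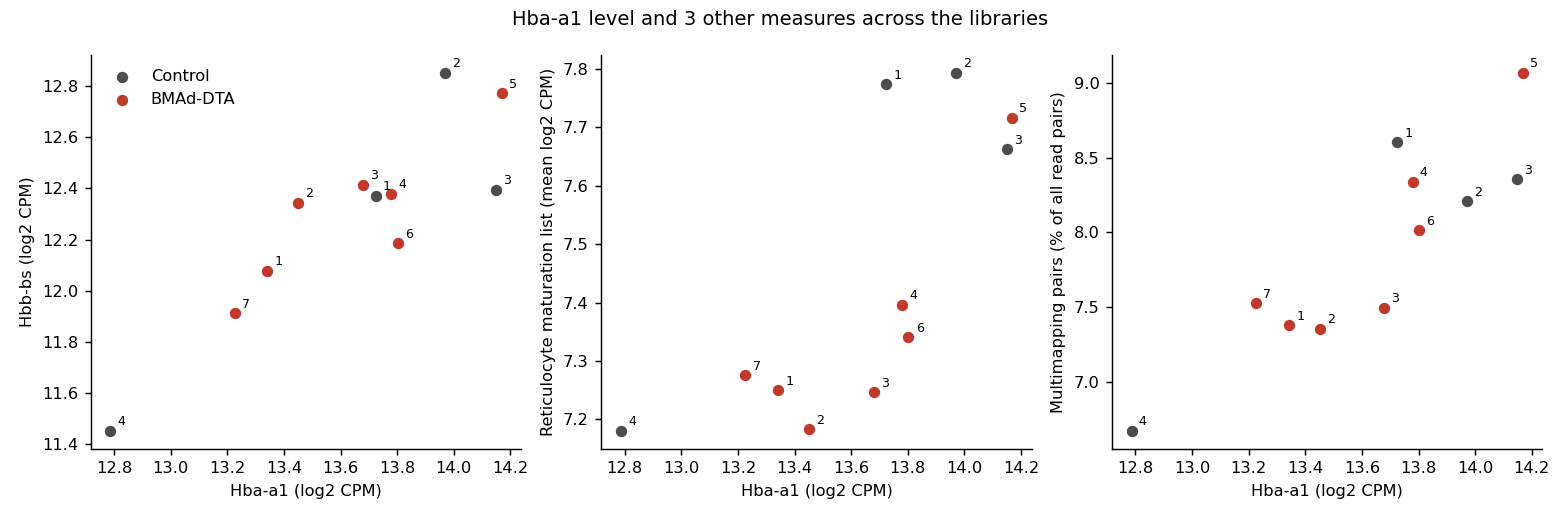
Log2 CPM of Hba-a1 (horizontal axes) against log2 CPM of Hbb-bs, the mean log2 CPM of the reticulocyte maturation list and the percentage of multimapping pairs, with 1 point per library, controls in grey and BMAd-DTA mice in red, numbered by replicate. Control replicate 4 lies at the lower left in all 3 panels, with 6.68% multimapping pairs.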

How the data were processed

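Whole distal tibia RNA was sequenced as strand-specific pairs of 100 bases, with 1 library per mouse. The authors checked reads with FastQC (0.11.9), aligned them to mm10 with STAR and deposited raw counts per gene, not normalized, per library and merged, without multimapping pairs. How the merged table was reduced to its genes is not given in the sources used here. The unmapped, multimapping, unassigned and ambiguous lines were left out, and 0 other columns were set aside. IDs were matched to GENCODE M21 (99.9%).

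Counts were tested over all genes in R 4.3.3 with edgeR 4.0.16 (filterByExpr, TMM, glmQLFit, glmQLFTest, two-sided, Benjamini-Hochberg, adjusted p under 0.05). DESeq2 1.42.0 and limma 3.58.1 were alternatives, beside other scalings, counts, filters and each mouse left out. CPM used TMM scaling, and log2 CPM a prior count of 2. Ratios within libraries were tested by exact permutation and correlations by 100000 permutations. The fit was tested on simulated data with planted changes larger than the fitted changes of the globins. That test does not show whether changes as small as theirs could be detected. Samples were grouped by genotype label; the labels give no batch. Named genes were the globins and, from each list, the highest and lowest log2 fold change, the most abundant, any called and set names, beside the 10 genes most like the globins, and some of these genes are not reported here. Members and lists were chosen with earlier results of these data known. Library totals of 16969529 to 18637663 counts leave counting error small beside the spread between mice, and the p-values rest on that spread.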

Additional observations from a re-analysis of the deposited data

Results flagged for a closer look

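In 44 groups of values checked, 4 values lay far from the rest of their group, where chance alone flags about 1 in 20 groups. BMAd-DTA replicate 5 accounted for 3 of them, each above the other 6 mice of its group. It had 18.8 CPM of Hbq1b, where the next highest mouse had 11.7, 3074 CPM of Slc4a1 beside 2259 and 243 CPM of Eif2ak1 beside 194. The same library had the highest Hba-a1 and Hba-a2 of all. Control replicate 4 had 375 CPM of Fech, where the next lowest control had 682, and was also the control with the lowest level of each globin.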

How the results depend on the processing

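The count of globins called was 0 under each of the 9 other settings of the fit and with each of the 11 mice left out, and adjusted p ran from 0.385 for Hbb-bt to 0.999 for Hba-a1. The log2 fold change of Hba-a2 turned to -0.0013 with limma-voom, and that of Hbb-bt to 0.013 with the muscle level as a covariate. With 1 mouse left out, log2 fold changes ran from -0.29 to 0.093 for Hba-a1, from -0.18 to 0.18 for Hba-a2, from -0.24 to 0.19 for Hbb-bs and from -0.26 to 0.058 for Hbb-bt, and the alpha to beta log2 difference from -0.10 to 0.092. The cause of these turns was not tested. The difference in globin share was -0.080 percentage points, and -0.43 to 0.10 with a mouse left out. Among all genes, 13 were called in the reported fit, 845 with DESeq2, 238 with limma-voom, 20 with RLE scaling, 3 with the muscle covariate and 0 to 292 with a mouse left out. Of the 264 values of erythroid to globin ratios with a mouse left out, 251 kept direction and side of the threshold. The ratios that turned were Nfe2 to Hba-a1 (-0.42 to 0.027), Bcl11a to Hba-a1 (-0.26 to 0.34) and to Hbb-bs (-0.33 to 0.27), and Bnip3l to Hba-a1 (-0.24 to 0.11) and to Hbb-bs (-0.28 to 0.041). Without BMAd-DTA replicate 7, 5 ratios passed the threshold, that of Slc4a1 to Hbb-bs among them (log2 difference -0.54, adjusted p = 0.0457, exact permutation test). The comparisons planned for Ahsp were not run. The labels give no replicate numbers, and those used here count the libraries of each group in sample order. They pair no control with a BMAd-DTA mouse, and no paired analysis was run. The loss of pairs that map to both copies limits how exactly each globin is known.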
